A study of Sus scrofa with 20 samples.

Results

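The enzymes described here handle foreign compounds, aldehydes and steroids in the pig kidney, and were measured 6 h after neurologic death (ND), the irreversible loss of brain function that precedes recovery of organs from most deceased donors. They were taken by name: every gene with a single platform symbol starting with CYP followed by a digit, FMO followed by a digit, ADH, ALDH, AKR, GST, UGT, SULT or HSD, except CYP27B1. By this rule 69 of the 6765 genes on the array were members, comprising 27 cytochromes P450 (CYP), 2 flavin monooxygenases (FMO), 2 ADH, 11 aldehyde dehydrogenases (ALDH), 5 aldo-keto reductases (AKR), 6 glutathione transferases (GST), 1 UDP-glucuronosyltransferase (UGT), 3 sulfotransferases (SULT) and 12 hydroxysteroid dehydrogenase (HSD) genes. A gene with several probe sets was represented by the one that was brightest on average across the 20 animals.

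Total RNA of frozen kidney was hybridised to Affymetrix arrays for pig transcripts, labelled in 1 colour, 1 for each animal. The 10 ND animals had a burr hole, catheters and anaesthesia, and a balloon under the dura was then inflated until ND was established, whereas the 10 control animals had the same preparation without inflation. Animals of both groups were ventilated for 6 h, with saline boluses (0.9%, 2 cc/kg) given when needed to keep the mean arterial pressure above 35 mmHg. The allocation was random, and the labels name no strain, age, sex or batch. Array medians lay between 5.09 and 5.35 (log2 signal), and the number of arrays limits the precision. Each animal is given by its group and the number in its label, as in ND_47. Numbers up to 100 were held by 7 of the 10 ND animals and 1 of the 10 controls, and numbers from that of Control_184 upwards, here called late-numbered, by 3 ND and 5 control animals. All values are log2 signals, all differences are ND minus control (n = 10 each) with their SE, and each adjusted p is that of limma after Benjamini-Hochberg correction for the 23999 probe sets tested, with a call at an adjusted p under 0.05. Few genes of any kind were called in the late-numbered animals (0.177% lower, 0.148% higher), so a call lost there cannot tell whether a difference is absent.

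Cytochromes P450 are haem enzymes that insert oxygen into a substrate, most of them with electrons passed on by the reductase POR, and flavin monooxygenases oxidise nitrogen and sulfur atoms. Alcohol and aldehyde dehydrogenases and aldo-keto reductases interconvert alcohols, carbonyls and acids. Glutathione transferases, glucuronosyltransferases and sulfotransferases then attach a polar group that favours excretion, a task the proximal tubule shares with the liver. Hydroxysteroid dehydrogenases switch steroid hormones between active and inactive forms, and several of them also serve fatty acid or amino acid breakdown.

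Of the 69 enzymes 4 were lower in ND kidneys and 0 were higher. The lower ones were UGT2B31, SULT1A3, CYP2C36 and HSD17B10. That is 5.80% of the members called lower, where 4.55% of all 6765 genes were, and none called higher, where 5.44% of all genes were, so the share of lower calls was near that of the array as a whole. Among the 49 members above background on every array the 4 lower calls were 8.16%, where such genes were lower in 5.58% and higher in 6.55%. By limma without adjustment, 19 members (27.5%) had a negative difference with p under 0.05, against 15.7% of all genes. Such a positive difference was found for 2 members, CYP2C91 and GSTA4 (2.90%, against 14.3% of all genes). Differences were below 0 for 58 members (84.1%, against 54.3% of all genes), with a median of -0.17 for members and -0.02 for all genes. No member had ND and control values that did not overlap, as 0.591% of all genes did. In whole tissue, fewer cells of a type and less RNA per cell cannot be told apart.

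**Figure D1:**
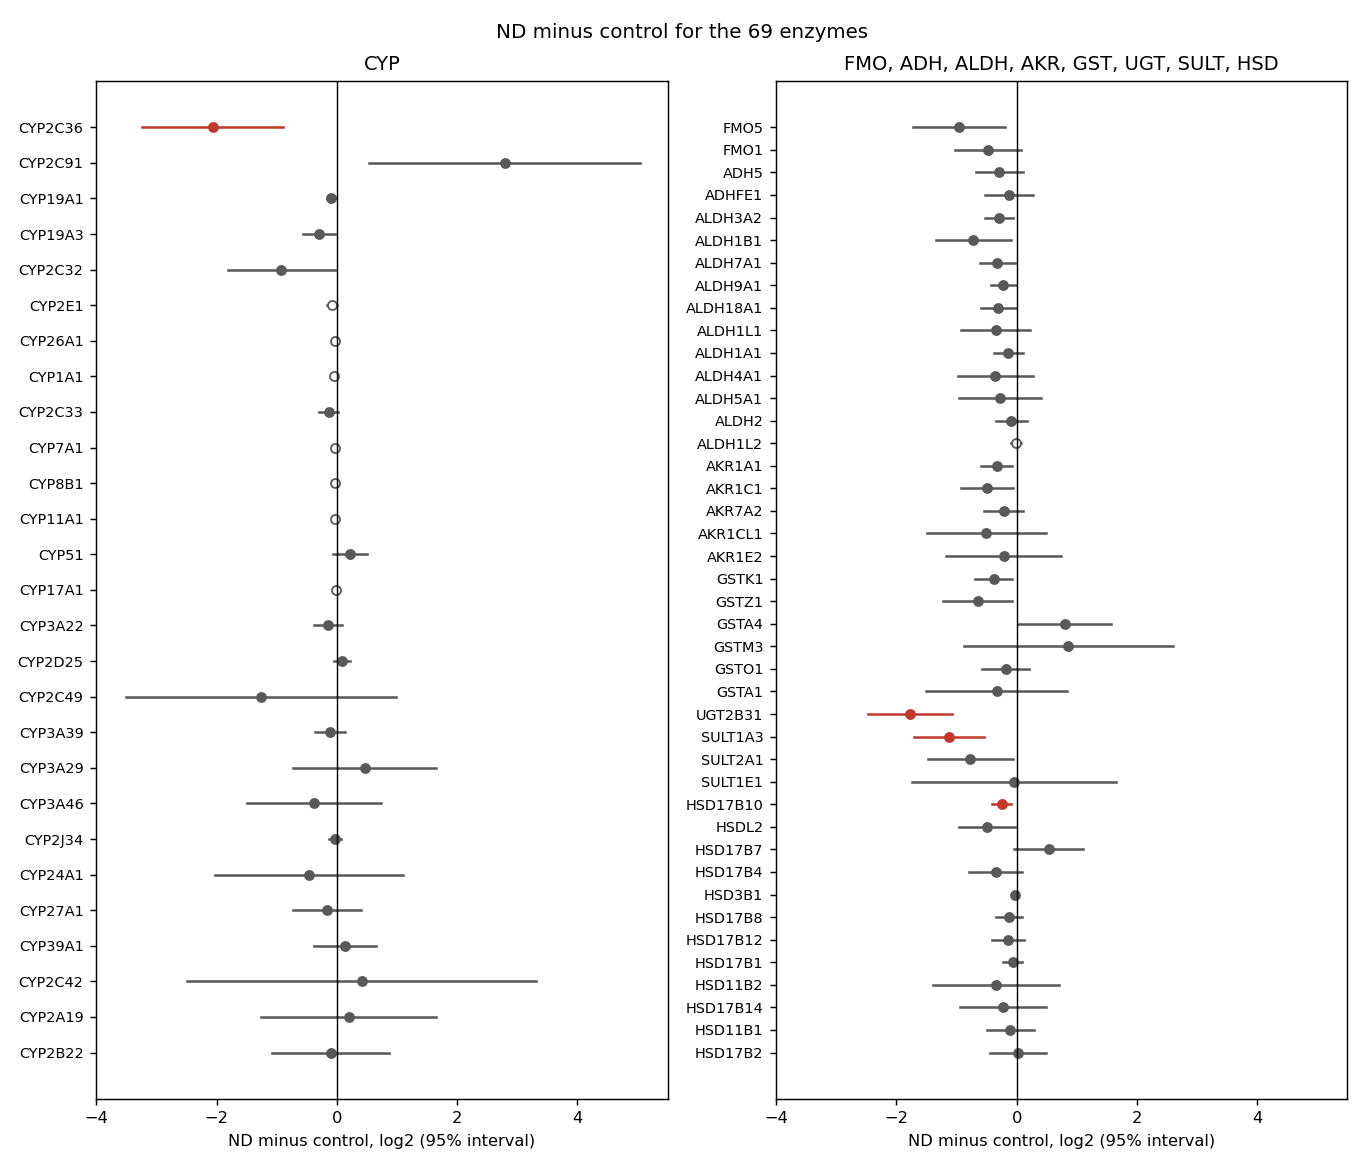
Difference between ND and control (log2, horizontal axis, with its 95% interval) for each of the 69 enzymes, with cytochromes P450 on the left and the other families on the right, each family ordered by p. Red marks the 4 members called lower, open circles mark the 8 that never read above background. Most points lie left of 0 (58 of 69), and all 4 red intervals do.

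UGT2B31, which attaches glucuronic acid to small molecules, was the only glucuronosyltransferase among the members. Its lowest, median and highest log2 signals were 8.55, 10.51 and 11.52 in ND kidneys, against 10.81, 12.27 and 13.39 in control kidneys. All 10 ND animals lay below the control median and 7 lay below the lowest control, while 9 controls lay above the highest ND animal. The difference was -1.77 ± 0.33 (adjusted p = 0.00294), or 0.292 times the control level. A second UGT2B31 probe set gave -2.73 ± 0.47 (adjusted p = 0.00170). With a term for animal number up to 100 or above, the first probe set gave -1.68 (adjusted p = 0.0487), and in the late-numbered animals it gave -0.78 (adjusted p = 0.449).

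SULT1A3 belongs to the phenol sulfotransferases, and the human enzyme of that name sulfates dopamine. The RefSeq gene table lists SULT1A1 as a synonym of this pig gene. In ND kidneys it read 9.70 at the lowest, 10.81 at the median and 12.13 at the highest, against 11.52, 11.94 and 12.42 in control kidneys. Of the ND animals 8 lay below every control, and ND_100, at 12.13, lay among the highest values of either group. The difference was -1.12 ± 0.28 (adjusted p = 0.0187), or 0.460 times the control level. The call was lost with the animal number term (-0.66, adjusted p = 0.362), in the late-numbered animals (-0.53, adjusted p = 0.345), and without ND_47 and ND_92 (-0.96, adjusted p = 0.0608).

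CYP2C36 is a pig member of the CYP2C subfamily, which metabolises drugs and fatty acids in other mammals. The ND signals had a minimum of 4.16, a median of 7.52 and a maximum of 9.34, against 7.99, 9.05 and 11.51 in control kidneys. There were 7 ND animals below the lowest control, and 3 controls above the highest ND animal. By the probe sets used here this was the largest of the called differences, -2.07 ± 0.56 (adjusted p = 0.0299), or 0.239 times the control level. It lost its call without ND_01, ND_47, Control_184 or Control_197 (adjusted p 0.0501 to 0.0552), without ND_47 and ND_92 together (-1.51, adjusted p = 0.0662), with the animal number term (-1.37, adjusted p = 0.382) and in the late-numbered animals (-1.42, adjusted p = 0.541). A second CYP2C36 probe set averaged 1.73 in ND and 1.77 in control kidneys, below background, and was not called (adjusted p = 0.281).

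HSD17B10 is a mitochondrial dehydrogenase of isoleucine breakdown and also a subunit of mitochondrial RNase P. Its ND values lay between 11.25 and 11.66 with a median of 11.47, its control values between 11.23 and 11.92 with a median of 11.74. All 10 ND animals were below the control median, but the lowest value of all was that of Control_199. The difference was small, -0.25 ± 0.07, and stood at the threshold (adjusted p = 0.0497). In 17 of the 20 fits that left out 1 animal the call was lost, by an adjusted p of up to 0.0894. Quantile normalization (-0.20, adjusted p = 0.0775), the animal number term (-0.21, adjusted p = 0.309) and the late-numbered animals (-0.18, adjusted p = 0.632) ended it too.

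**Figure D2:**
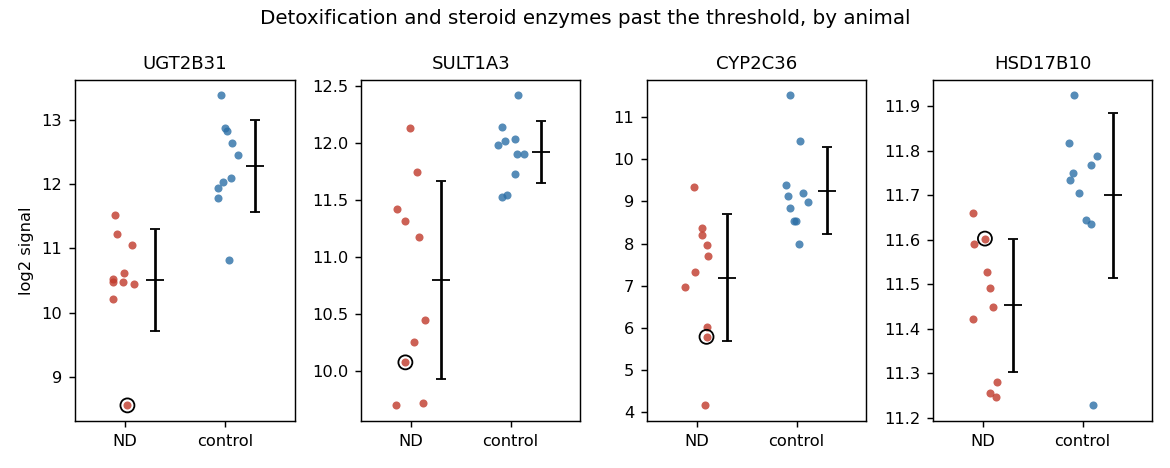
Log2 signal of UGT2B31, SULT1A3, CYP2C36 and HSD17B10 in each animal (points; ND red on the left, control blue on the right), with the mean and SD of each group as a bar; each panel has its own vertical scale and the ringed point is ND_47. For UGT2B31, 7 ND animals lie below every control; for HSD17B10, 7 controls lie above every ND animal and Control_199 is the lowest point, at 11.23.

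The cytochromes P450 gave 1 lower call among 27 and 0 higher, and 20 of the 27 differences were below 0, with a median of -0.05 (-0.03 without ND_47 and -0.09 without Control_134). Among the 16 that read above background on at least 10 arrays, only 9 differences were below 0, with a median of -0.09. Of the 27, 13 read above the background level of 2.79 on all 20 arrays. On no array did 7 do so, namely CYP1A1 (the classical target of the aryl hydrocarbon receptor), CYP2E1 (ethanol oxidation), CYP7A1 and CYP8B1 (bile acid synthesis), CYP11A1 and CYP17A1 (steroid synthesis) and CYP26A1 (retinoic acid breakdown). For these 7 the arrays give a bound and no level, though their differences, all slightly below 0, are among the 20 counted above.

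The CYP2C genes had differences of both signs. CYP2C91, which RefSeq lists as a transcribed pseudogene, read 5.35, 9.89 and 11.77 (lowest, median, highest) in ND kidneys and 3.12, 6.44 and 11.56 in control kidneys. Its difference of 2.79 ± 1.07 did not pass the test (adjusted p = 0.111), and it was positive where that of CYP2C36 was negative. CYP2C33 was narrow, with 13.89 in ND_47, 14.30 to 14.74 in the other 9 ND animals and 14.51 to 14.67 in controls, and a difference of -0.14 ± 0.08 (adjusted p = 0.218). CYP2C32 read above background in 4 ND and 6 control kidneys, with a difference of -0.93 ± 0.42 (adjusted p = 0.156). In the RefSeq gene order CYP2C36, CYP2C32, CYP2C49, CYP2C42 and CYP2C91 lie within 10 genes of a neighbour among them. Close copies can share probes, and 10 probe sets that carried several symbols with a member among them were not used.

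CYP2C42 and CYP2C49 spread widely in both groups and had the same animals at the low end. CYP2C42 spanned 2.10 to 10.61 in ND kidneys (median 7.89) and 2.16 to 9.91 in control kidneys (median 6.42). CYP2C49 spanned 4.97 to 12.75 in ND kidneys (median 11.45) and 8.30 to 14.19 in control kidneys (median 12.57). The 4 lowest ND animals were ND_01, ND_47, ND_92 and ND_193 for both genes, and the 4 lowest controls were Control_134, Control_155, Control_187 and Control_190 for both. The rest of the order differed: Control_184 read 5.76 for CYP2C42 and 13.61, among the highest controls, for CYP2C49. CYP2C36 had the same 4 lowest ND animals, but shared 2 of the 4 lowest controls. Group differences were 0.41 ± 1.39 for CYP2C42 (adjusted p = 0.847) and -1.26 ± 1.07 for CYP2C49 (adjusted p = 0.406), so both were small against the spread within groups.

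The CYP3A genes, the main drug oxidases of liver and gut, gave no call. CYP3A29 read 5.35, 6.25 and 8.84 (lowest, median, highest) in ND kidneys and 4.46, 5.75 and 8.55 in control kidneys, with a difference of 0.46 ± 0.57 (adjusted p = 0.576). CYP3A46 read 6.59, 8.62 and 10.77 in ND kidneys and 6.50, 9.33 and 10.81 in control kidneys, with a difference of -0.38 ± 0.53 (adjusted p = 0.619). The groups of both genes overlapped. For CYP3A29, 9 ND animals lay above the control median, and for CYP3A46, 7 lay below it. CYP3A39, listed in RefSeq as a synonym of CYP3A46, was measured by another probe set that read above background in 3 ND and 3 control kidneys (-0.12 ± 0.12, adjusted p = 0.508).

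Among the P450s of vitamin D and sterols, CYP24A1, which breaks down vitamin D, varied widely between animals of each group. It ran between 5.58 and 11.06 in ND kidneys (median 9.57) and between 7.03 and 11.33 in control kidneys (median 10.25), and the difference of -0.46 ± 0.75 did not pass the test (adjusted p = 0.672). The sterol 27-hydroxylase CYP27A1 was at 6.27 in ND_47 and at 7.78 to 9.46 in the other ND kidneys, against 7.70 to 8.82 in control kidneys (-0.17 ± 0.27, adjusted p = 0.673). CYP39A1, an oxysterol hydroxylase, differed by 0.13 ± 0.25 (adjusted p = 0.722). CYP51, which demethylates lanosterol on the way to cholesterol, differed by 0.22 ± 0.14 (adjusted p = 0.255). The 95% intervals of these 4 reached from -2.02 to 1.10 for CYP24A1, -0.72 to 0.39 for CYP27A1, -0.39 to 0.65 for CYP39A1 and -0.06 to 0.51 for CYP51.

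The aromatase genes make oestrogens from androgens, and their probe sets disagreed. The CYP19A3 probe set used here read 8.74 to 9.51 in ND kidneys and 8.75 to 9.80 in control kidneys (-0.30 ± 0.13, adjusted p = 0.136), but the 7 other CYP19A3 probe sets averaged between 1.94 and 2.84. CYP19A1 read above background in 0 ND kidneys and 1 control kidney. Neither gene was called.

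Both flavin monooxygenases had negative differences without a call. FMO5 read 6.42, 9.19 and 9.89 (lowest, median, highest) in ND kidneys and 8.63, 9.76 and 10.89 in control kidneys, a difference of -0.96 ± 0.37 (adjusted p = 0.107). FMO1, a major form of the adult human kidney, read 11.26, 12.72 and 13.44 in ND kidneys and 12.55, 13.01 and 13.43 in control kidneys, a difference of -0.48 ± 0.26 (adjusted p = 0.213). In the plot of differences both intervals extend further to the left than to the right of 0, and that of FMO5 ends at -0.20.

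The ADH symbols gave no call either. ADH5, which oxidises S-hydroxymethylglutathione and reduces S-nitrosoglutathione, read 11.28 to 12.73 in ND kidneys and 11.67 to 12.93 in control kidneys (-0.29 ± 0.19, adjusted p = 0.282). ADHFE1, a transhydrogenase of 4-hydroxybutyrate, differed by -0.13 ± 0.19 (adjusted p = 0.654).

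All 11 aldehyde dehydrogenases had negative differences, with a median of -0.29, and none was called. The median remained negative after the arrays were shifted to equal medians (-0.38) and with quantile normalization (-0.26), where 10 of the 11 were below 0. It was -0.16 without ND_47 and ND_92, and in the late-numbered animals it turned to 0.01, with 4 of 11 below 0. By limma without adjustment 5 of them had p under 0.05. These were ALDH3A2 (fatty aldehydes), ALDH1B1 (a mitochondrial form), ALDH7A1 (lysine breakdown), ALDH9A1 (carnitine synthesis) and ALDH18A1 (proline synthesis), with adjusted p between 0.110 and 0.158. ALDH1B1 had the largest of these differences. Its lowest, median and highest signals were 9.67, 11.33 and 12.13 in ND kidneys and 11.07, 11.85 and 13.07 in control kidneys, with a difference of -0.72 ± 0.30 (adjusted p = 0.128). ALDH3A2 read 11.09 to 11.97 in ND kidneys and 11.46 to 12.29 in control kidneys (-0.29 ± 0.11, adjusted p = 0.110), while its second probe set gave 0.06.

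The retinal-oxidising ALDH1A1 read 13.43 in ND_47 and 14.07 to 14.62 in the other ND kidneys, against 14.14 to 14.54 in control kidneys (-0.14 ± 0.12, adjusted p = 0.396). ALDH2, which removes acetaldehyde, differed by -0.09 ± 0.12 (adjusted p = 0.622), with a 95% interval of -0.35 to 0.17. ALDH4A1 (proline breakdown) and ALDH1L1 (folate metabolism) each differed by -0.35, with SE of 0.30 and 0.27. ALDH1L2 never read above background, and ALDH5A1 did so in 1 ND and 3 control kidneys.

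The 5 aldo-keto reductases likewise had negative differences without a call, with a median of -0.33. That median was -0.14 without ND_47 and -0.08 without ND_47 and ND_92. AKR1A1, the general aldehyde reductase, read 11.96, 12.71 and 13.17 (lowest, median, highest) in ND kidneys and 12.71, 12.97 and 13.25 in control kidneys. Its difference of -0.33 ± 0.12 had the smallest adjusted p among members not called (0.103), and passed at 0.0494 without ND_100. AKR1C1, whose human namesake inactivates progesterone, read 9.70 to 11.77 in ND kidneys and 10.99 to 11.93 in control kidneys (-0.49 ± 0.21, adjusted p = 0.135). AKR7A2, a succinic semialdehyde reductase, differed by -0.22 ± 0.16 (adjusted p = 0.333).

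The glutathione transferases were mixed, with 4 of 6 differences below 0 and 0 calls. GSTZ1, which acts in tyrosine breakdown, read 6.89 in ND_47 and 8.16 to 9.24 in the other ND kidneys, against 8.45 to 10.35 in control kidneys (-0.65 ± 0.27, adjusted p = 0.130). GSTK1, a form of mitochondria and peroxisomes, differed by -0.38 ± 0.15 (adjusted p = 0.111). GSTA4, which conjugates the lipid peroxidation product 4-hydroxynonenal, had a positive difference. It read 5.47, 6.24 and 7.82 (lowest, median, highest) in ND kidneys and 4.45, 5.80 and 7.06 in control kidneys, a difference of 0.80 ± 0.37 (adjusted p = 0.160). GSTA1, a neighbour of GSTA4 in the RefSeq gene order, differed by -0.33 ± 0.56 (adjusted p = 0.686), and GSTO1 by -0.18 ± 0.19 (adjusted p = 0.498). GSTM3 divided both groups, with 8 ND and 6 control kidneys above background.

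Of the other sulfotransferases, SULT2A1, which sulfates dehydroepiandrosterone, read at background in all 10 ND kidneys (1.94 to 2.22). Only 3 control kidneys read it above background, at up to 5.41, and the difference was not called (adjusted p = 0.142). SULT1E1, the oestrogen sulfotransferase, read 4.85, 9.14 and 10.82 (lowest, median, highest) in ND kidneys and 5.94, 9.09 and 10.77 in control kidneys. Its difference of -0.05 ± 0.81 had a 95% interval of -1.75 to 1.65, so changes of either sign within that interval are compatible with these arrays.

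Among the 12 HSD symbols 10 had a negative difference (median -0.14), with HSD17B10 as the 1 call. The median was -0.07 without ND_47. HSD11B1, which regenerates cortisol from cortisone, read 7.32, 8.24 and 8.84 (lowest, median, highest) in ND kidneys and 7.29, 8.36 and 8.84 in control kidneys. The difference was -0.10 ± 0.19 (adjusted p = 0.714, 95% interval -0.50 to 0.29). HSD11B2, which inactivates cortisol in the collecting duct and so keeps it from the mineralocorticoid receptor, was at 5.38 in ND_47. The other 9 ND kidneys read it at 9.70 to 10.86, against 9.80 to 10.53 in control kidneys, and the difference was -0.34 ± 0.50 (adjusted p = 0.642). The mean of the 3 distal nephron markers measured (AQP3, SCNN1B and KCNJ1) was 9.33 in ND_47, within the 8.66 to 9.86 of all ND kidneys and the 9.27 to 10.06 of control kidneys. All 3 had negative differences of -0.54 to -0.49, and none was called.

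HSD17B7, an enzyme of cholesterol synthesis, had the largest positive difference of the family, 0.53 ± 0.27 (adjusted p = 0.194). HSD17B4, the bifunctional enzyme of peroxisomal beta-oxidation, read 11.33 in ND_47 and 12.90 to 13.72 in the other ND kidneys, against 13.09 to 13.67 in control kidneys (-0.34 ± 0.21, adjusted p = 0.258). HSDL2, a related peroxisomal protein, gave different calls by probe set. The probe set used here gave -0.49 ± 0.22 (adjusted p = 0.156), and the other -0.83 ± 0.20 (adjusted p = 0.0168). Counting all 101 member probe sets, 6 were called lower, where 3.33% of all probe sets were lower and 3.8% higher.

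Animals of one group differed more in these enzymes than in most genes. The median SD within groups was 0.48 for members and 0.28 for all genes, and it exceeded 1 for 15 members (21.7%, against 2.23% of all genes). The 15 comprised 9 P450s (CYP2C42, CYP2C91, CYP2C49, CYP24A1, CYP2A19, CYP3A29, CYP2C36, CYP3A46 and CYP2B22), GSTM3, GSTA1, SULT1E1, AKR1CL1, AKR1E2 and HSD11B2. CYP2C36 was the only one of them called. CYP2B22 read above background in only 4 ND and 5 control kidneys. CYP2A19, whose RefSeq synonyms include CYP2A6, the human nicotine oxidase, read 8.64, 12.27 and 13.52 (lowest, median, highest) in ND kidneys and 8.87, 11.56 and 14.37 in control kidneys. The wide spread of most of these genes was present in both groups, but that of HSD11B2 (SD 1.60 in ND and 0.28 in control kidneys) came with the single value of ND_47.

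**Figure D3:**
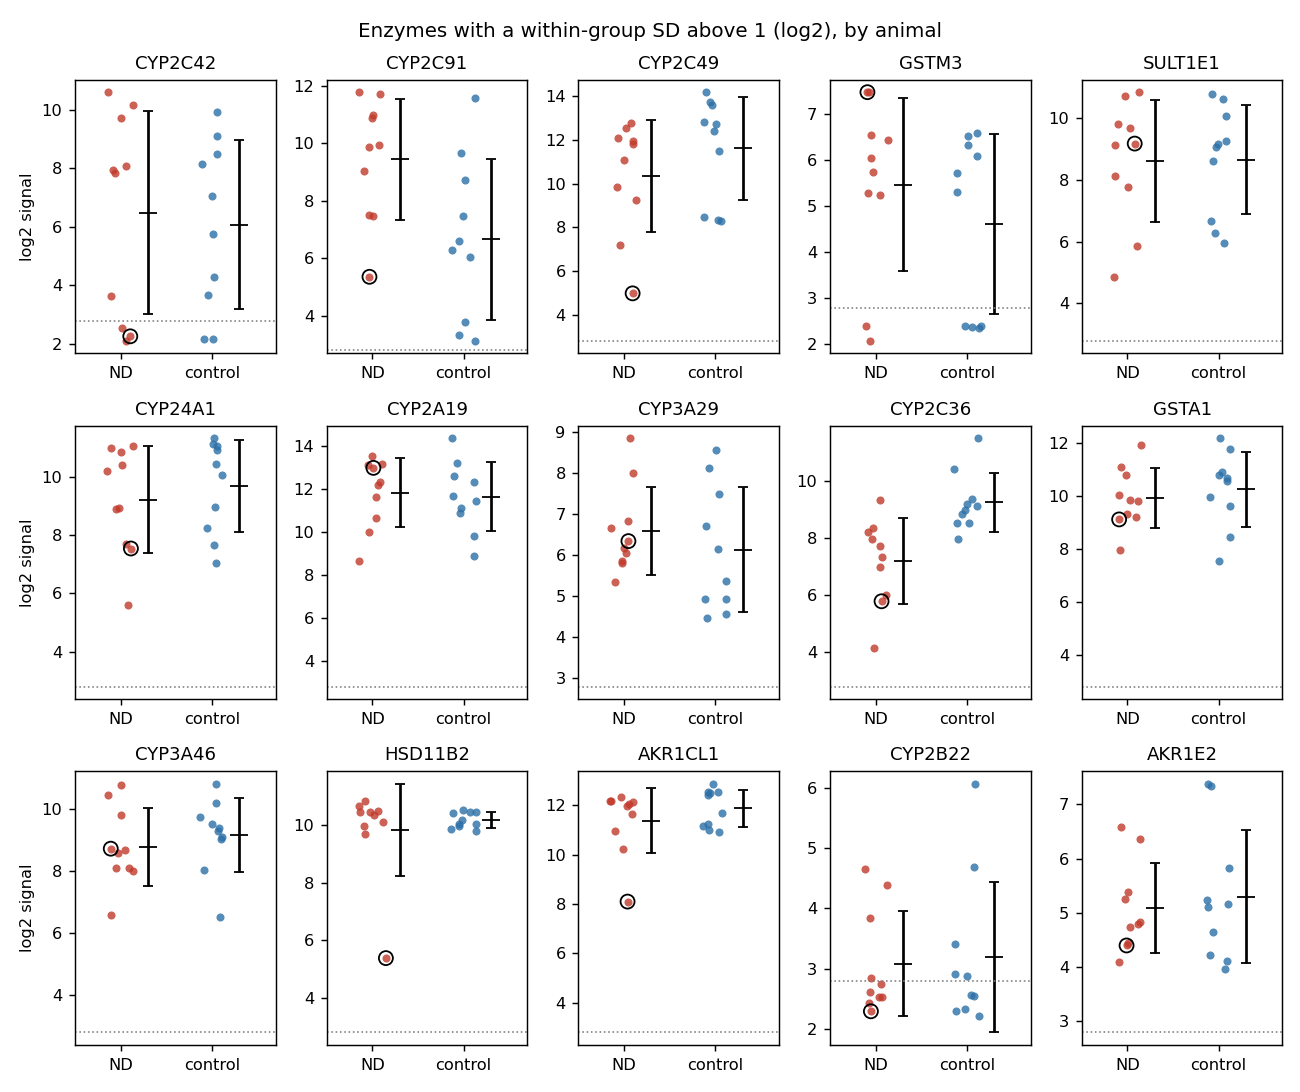
Log2 signal by animal for the 15 enzymes with a within-group SD above 1 (points; ND red on the left, control blue on the right; bars show mean and SD; dotted line, background level of 2.79; ringed point, ND_47; each panel has its own vertical scale). CYP2C42, GSTM3 and CYP2B22 include kidneys at background in both groups, and the ND spread of HSD11B2 comes with 1 animal at 5.38.

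The negative differences were unevenly spread over the ND animals. Over the 49 members that read above background on all 20 arrays, ND_47 was the lowest ND animal for 26, ND_100 for 6 and ND_92 for 5. The median of these members, each relative to its control mean, was -0.96 in ND_47 and -0.56 in ND_92. It lay between -0.32 and 0.08 in the other ND animals and between -0.24 and 0.22 in control animals. Proximal tubule markers ran low in the same pair of animals: their mean level was 10.72 in ND_47 and 11.39 in ND_92, 11.75 to 12.46 in the other ND animals and 11.68 to 12.39 in controls. Of the 13 listed markers 8 were measured (LRP2, SLC22A6, SLC22A8, MIOX, PDZK1, AQP1, DPEP1 and ANPEP), all above background, and none was called. The log2 of their summed signal ranged between 14.87 and 16.08 in ND animals and between 15.59 and 15.96 in controls.

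**Figure D4:**
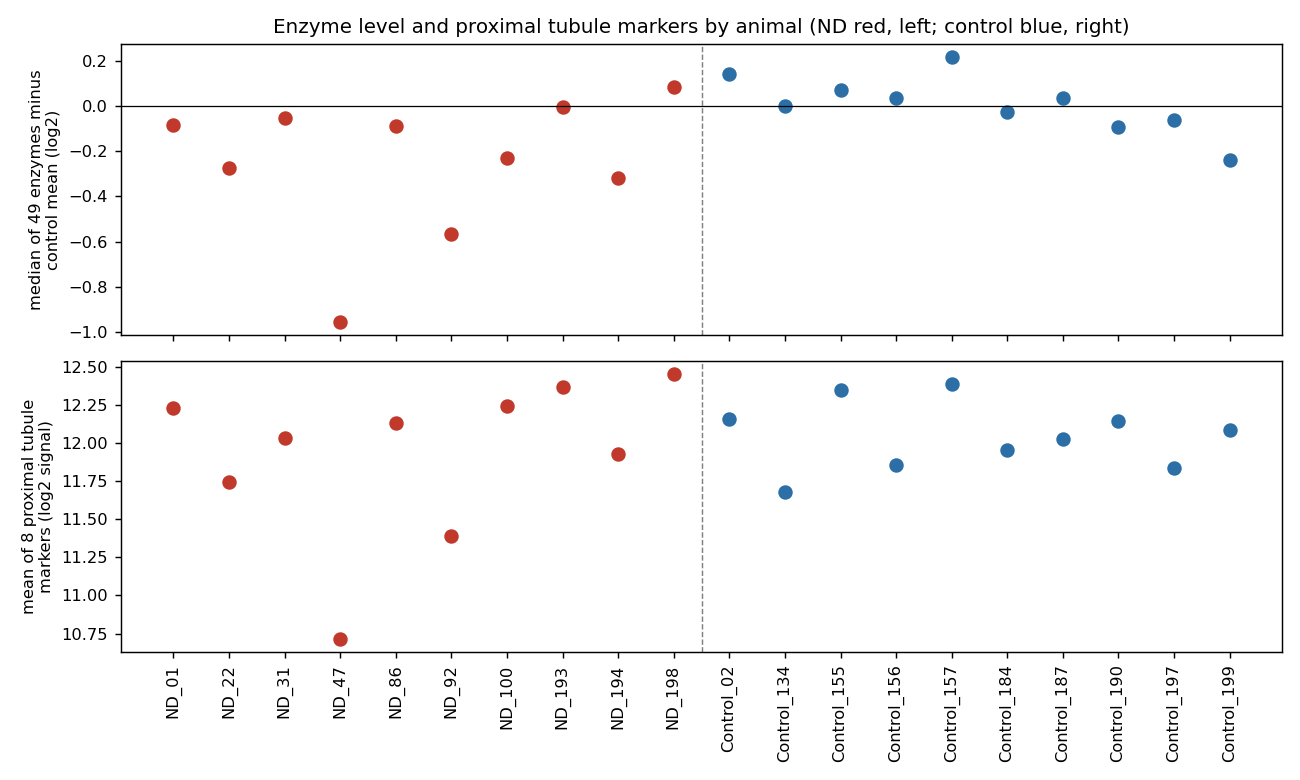
Top, median over the 49 enzymes above background on all arrays of each animal's signal minus the control mean (log2); bottom, mean log2 signal of 8 proximal tubule markers; ND animals red on the left, control animals blue on the right. ND_47 and ND_92 are the lowest animals in both panels, at -0.96 and -0.56 in the top one.

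Markers of other cell types gave calls in some lists and none in others. The 3 distal nephron markers had differences of -0.54 (AQP3), -0.49 (SCNN1B) and -0.50 (KCNJ1), each with p under 0.05 before adjustment and none called (adjusted p 0.0758 to 0.106). Their summed signal was 10.88 to 12.30 in ND animals and 11.51 to 12.50 in controls (log2). Of 5 leukocyte markers measured 3 were called higher (LAPTM5, CD3E and ITGB2) and CD14 lower, with a mean level of 4.46 to 5.75 in ND animals and 4.28 to 4.80 in controls. ND_47 had the highest mean level of the leukocyte markers (5.75) and of the endothelial markers (8.26, against 6.58 to 7.71 in the other ND animals and 6.57 to 7.11 in controls). The summed leukocyte signal was 8.47 to 10.16 in ND animals and 7.81 to 8.95 in controls (log2). Of 7 adrenal markers 1 was called lower (MRAP), and STAR, PNMT and CHGB never read above background, with a summed signal of 5.49 to 5.62 in ND animals and 5.58 to 5.81 in controls. MRAP itself read below background in all ND animals (2.01 to 2.15) and at 2.16 to 3.72 in controls. Of 12 hepatocyte markers limma called 0 (3 were lower with p under 0.05 before adjustment), and APOA2, APOB, SERPINA1 and HP never read above background, with a summed signal of 12.44 to 15.63 in ND animals and 13.64 to 15.50 in controls. CLDN5 was the 1 endothelial marker of 5 called higher, PDGFRB was higher among 4 stromal markers, FABP4 lower among 3 adipose markers, and of 2 red cell markers 0 were called. The part of cell composition in the enzyme differences was not tested.

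Without ND_47 the median member difference was -0.10, and without ND_47 and ND_92 it was -0.06, with 53 of 69 differences below 0 and the median of all genes at -0.02. The count of calls depended on the setting. After a shift of the arrays to equal medians 23 members were lower and 1 higher, where 24.3% of all genes were lower and 5.97% higher, and quantile normalization gave 3 and 0 (5.53% and 5.65% of all genes). With the animal number term 1 was lower and 0 higher (1.91% and 0.872% of all genes), and in the late-numbered animals 0 and 0 (0.177% and 0.148%). In the 7 ND and 1 control animals numbered up to 100 the counts were 1 and 0 (0.399% and 0.0591%), but they rest on the array of Control_02 alone, assumed to vary like the ND animals, and say nothing of how stable the calls are. At an adjusted p under 0.01, 1 was lower and 0 higher (1.71% and 1.91%), and at 0.1 they were 4 and 0 (7.78% and 8.53%).

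Without ND_47 and ND_92, 2 members were lower and 0 higher (3.75% and 4.24% of all genes). Of the 4 lower calls UGT2B31 (-1.53, adjusted p = 0.00429) and HSD17B10 remained without both animals. Among the late-numbered animals, 39 of 69 differences were below 0 with a median of -0.02, equal at this rounding to that of all genes. There the family medians of FMO (0.15), ADH (0.04), ALDH (0.01), AKR (0.06) and HSD (0.03) were above 0. Those of CYP (-0.02), GST (-0.01) and SULT (-0.53) were below 0, as was the single UGT value (-0.78). What the animal number stands for is not given in the labels.

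Calls among genes that work with these enzymes went in both directions. Regulators, electron and cofactor suppliers, other detoxification enzymes, steroid genes and transporters made up 108 listed genes, of which 66 were measured, with 5 lower and 2 higher, 7.58% and 3.03%, beside the 4.55% and 5.44% of all genes given above. Among 11 regulators, the nuclear receptors NR1I2 and HNF4A were lower and NR3C1 higher. NR1I2 is the pregnane X receptor, which in liver and gut switches on CYP3A, CYP2C and UGT genes in response to drugs. It read 2.15, 2.84 and 3.52 (lowest, median, highest) in ND kidneys and 2.78, 4.65 and 5.28 in control kidneys, above background in 6 ND and 9 control kidneys. Its difference was -1.51 ± 0.28 (adjusted p = 0.00290), and -1.67 with the animal number term (adjusted p = 0.0215). In the late-numbered animals it lost its call (-1.31, adjusted p = 0.377), as the other partner genes called did. A second probe set stayed at background in both groups.

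HNF4A, a factor of proximal tubule and liver cells that many of these genes depend on in mice, had groups that did not overlap by the probe set used here. It read 10.62, 12.12 and 12.59 (lowest, median, highest) in ND kidneys and 12.61, 12.70 and 13.06 in control kidneys, a difference of -0.84 ± 0.21 (adjusted p = 0.0174). A second HNF4A probe set gave -0.84 ± 0.27 without a call (adjusted p = 0.0677), and its groups overlapped, with a highest ND value of 9.46 and a highest control value of 9.36. NR3C1, the glucocorticoid receptor, read 5.83, 6.19 and 6.63 in ND kidneys and 4.66, 5.26 and 6.21 in control kidneys, a difference of 0.85 ± 0.20 (adjusted p = 0.0124). For both genes the call was lost with the animal number term (-0.64 with adjusted p = 0.242 for HNF4A, 0.67 with 0.189 for NR3C1). The aryl hydrocarbon receptor AHR differed by -0.11 ± 0.09 (adjusted p = 0.416). NR1I3 and NFE2L2 were not analysed here.

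Of 16 genes for electrons and cofactors, POR was lower and SLC35B2 higher. POR, the reductase that feeds microsomal P450s, read 7.79, 8.71 and 9.42 (lowest, median, highest) in ND kidneys and 8.81, 9.24 and 9.88 in control kidneys. The difference was -0.70 ± 0.17 (adjusted p = 0.0136), with 8 ND animals below every control, and its call was lost with the animal number term at a like size (-0.69, adjusted p = 0.113). SLC35B2 carries the sulfate donor PAPS into the Golgi and differed by 0.27 ± 0.08 (adjusted p = 0.0462). Leaving out 1 animal ended that call in 14 of 20 fits, as did both other scalings (adjusted p = 0.106 with equal medians and 0.0621 with quantile normalization).

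Of 27 other detoxification enzymes HMOX1 alone was called. HMOX1, which degrades haem, read 7.73, 8.95 and 9.50 (lowest, median, highest) in ND kidneys and 8.99, 9.69 and 10.81 in control kidneys, a difference of -1.09 ± 0.26 (adjusted p = 0.0155). NQO1, a quinone reductase often induced with it, differed by -0.14 ± 0.30 (adjusted p = 0.757). Of 5 steroid genes RDH11, a retinal reductase, was lower. It read 9.96, 10.91 and 11.62 in ND kidneys and 11.23, 12.05 and 12.70 in control kidneys, a difference of -1.06 ± 0.21 (adjusted p = 0.00535). Both calls were lost with the animal number term (-1.19 with adjusted p = 0.0796 for HMOX1, -0.70 with 0.159 for RDH11). Of 7 transporters limma called 0, and 0 had p under 0.05 without adjustment.

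**Figure D5:**
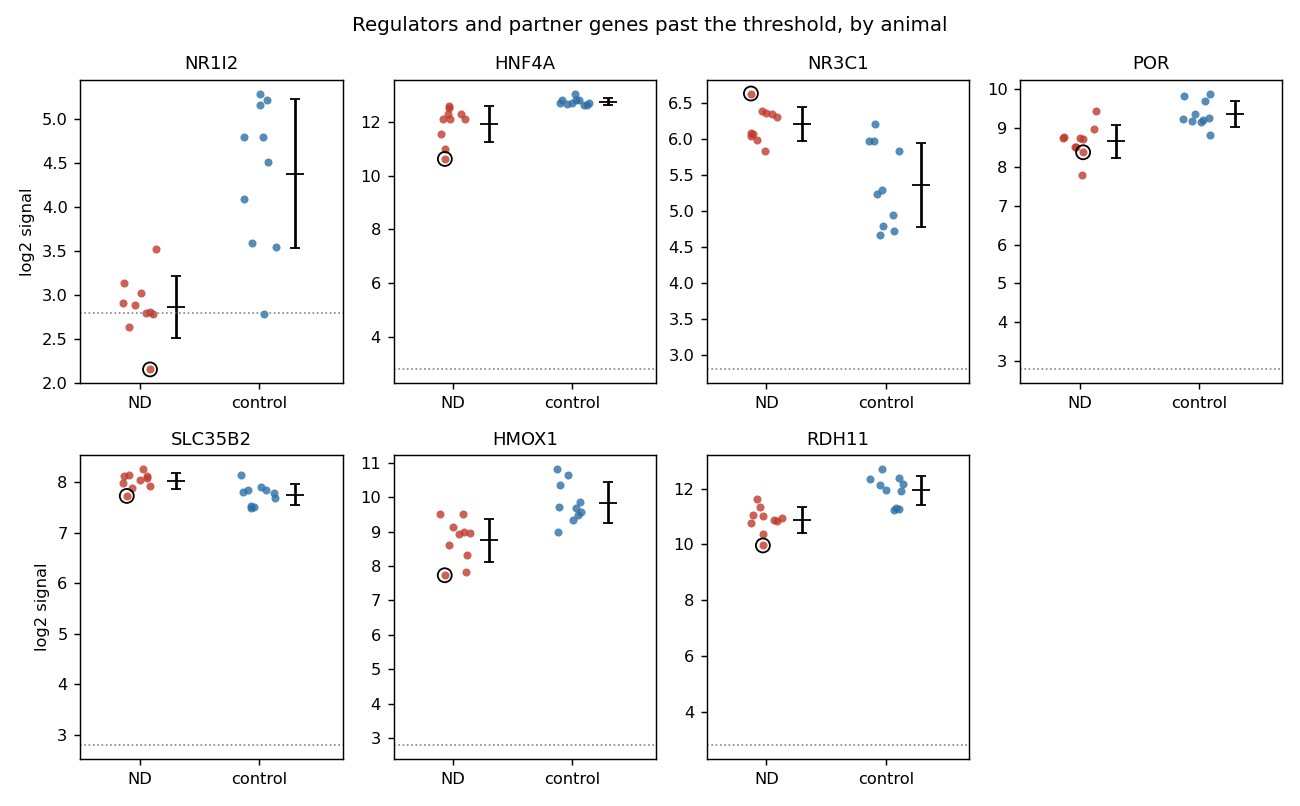
Log2 signal by animal of the 7 regulators and partner genes past the threshold (points; ND red on the left, control blue on the right; bars show mean and SD; dotted line, background level of 2.79; ringed point, ND_47; each panel has its own vertical scale). The groups of HNF4A do not overlap by this probe set, though they do by its second one, NR1I2 lies near background in ND kidneys, and the groups of SLC35B2 overlap widely.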

How the data were processed

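Kidney RNA of 20 pigs (10 ND, 10 control) was measured. Per the labels' protocols, biotin-labelled cRNA was made from 250 ng of TRIzol-extracted total RNA. The authors made and deposited processed signals, taken as log2 values because they ran between 0.88 and 16.2; the background correction, summarization and normalization are not given in the sources used here. The labels mention 2 specimens per animal but give 1 array each, and each array was taken as 1 animal.

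The table held 24123 probe sets, of which 124 controls were left out. Of the 23999 tested, 10069 had 1 gene symbol in the platform annotation, 198 several and 13732 none. Of the 69 members 68 matched the RefSeq gene table; its gene order was used to say which members are neighbours, and no sequence or coordinate was printed. Background was the highest signal of 23 tag and tryptophan control probe sets (2.79).

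Groups were compared by limma 3.58.1 (lmFit, then eBayes without trend) under R 4.3.3. The members, gene lists and the rule for named genes were chosen with earlier results of these data known. The rule took called members, the 3 smallest p and the brightest member per family, members of prior interest, and called or preselected partner genes. Other members named (the widely varying ones, those at background, CYP51, CYP2C32, CYP19A3, ALDH9A1, ALDH18A1, ALDH4A1, ALDH1L1 and ALDH5A1) were chosen after their values were seen.

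Data were simulated for the same comparison over 23999 probe sets, with 67 changed 1.41-fold, 67 changed 2-fold and 66 changed 4-fold. Of these changes 53.7%, 83.6% and 98.5% were recovered, and 11 of 168 calls were unchanged probe sets. The deposited data gave more calls, 913 higher and 799 lower, and the cut-off of the correction moves with the number of changes. The recovered shares were also not worked out for the enzymes, whose median SD within groups was 0.48 against 0.28 for all genes. For both reasons they may not hold for the enzymes. The alternatives were 2 scalings, removal of dim probe sets, other variance models and array weights, a term for animal number, subsets of animals, thresholds, a minimum fold of 1.2, the summary per gene and leaving out each animal.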

Additional observations from a re-analysis of the deposited data

Results flagged for a closer look

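Within groups of 10 arrays, 13 of 100 gene and group combinations (50 genes) had 1 animal set apart from the rest by Dixon's test. Chance flags about 1 in 20 independent groups. These combinations share the same arrays and are not independent, so the 13 cannot be weighed against that rate. Of the 13, 7 were ND_47. In that animal CYP2C33 was at 13.9, CYP27A1 at 6.27, ALDH1A1 at 13.4, GSTZ1 at 6.89, UGT2B31 at 8.55, HSD17B4 at 11.3 and HSD11B2 at 5.38, each below the other ND animals. The nearest other ND value of HSD11B2 was 9.70 and that of UGT2B31 10.2.

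Of the other 6 values, SULT2A1 was at 2.22 in ND_100, HSD17B10 at 11.2 in Control_199 and SULT2A1 at 5.41 in Control_190. CYP2E1 was at 2.58 in Control_197, CYP1A1 at 2.18 in Control_157 and HNF4A at 13.1 in Control_184. For SULT2A1 in ND animals, CYP2E1 and CYP1A1 the whole group read below background. Control_199 was the lowest control for HSD17B10, and without it the difference remained called.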

How the results depend on the processing

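The 4 lower and 0 higher enzymes became 23 lower and 1 higher (CYP2C91) after the arrays were shifted to equal medians. That shift moved the median difference of all genes to -0.11 and of the members to -0.25, because array medians were 0.09 higher in ND. By the same scaling 24.3% of all genes were called lower and 5.97% higher, and 7 of the 8 enzymes never above background were among the 23. Lower enzymes numbered 1 with the animal number term, 0 in the late-numbered animals, 2 without ND_47 and ND_92 and 1 at an adjusted p under 0.01. With a minimum fold of 1.2 the number was 1, and the share of all genes in that setting is not given here. Among animals numbered up to 100 (7 ND, 1 control, the lone control assumed to vary like the ND animals; chosen after seeing the data) 1 was lower, CYP3A39. Leaving out 1 animal gave 2 to 4 lower and 0 to 0 higher enzymes. It was 2 without ND_01, Control_184 or Control_197. Over all probe sets, 913 higher and 799 lower became 179 and 326 with the animal number term, 19 and 38 in the late-numbered animals, 303 and 316 at 0.01 and 1497 and 1678 at 0.1. With equal medians 7728 were lower. Leaving out 1 animal gave 680 to 1059 higher and 615 to 1244 lower, with 1244 without ND_193. Of the partner genes, 2 higher and 5 lower became 0 and 1 with the animal number term, 0 and 0 in the late-numbered animals, and 0 and 2 at 0.01. The shares of all genes in these settings are those given above for the enzymes. Of the 66 partners, those called higher were 1 with quantile normalization (5.65% of all genes) and 5 at 0.1 (8.53%). With an intensity trend 1 was higher, a setting without a share of all genes here. With equal medians 14 of the 66 were lower, where 24.3% of all genes were. Leaving out 1 animal gave 1 to 4 higher and 5 to 7 lower, with 4 without ND_47. The cause of these shifts was not tested beyond the scaling itself. For single genes, 456 of 534 differences kept direction and side of the threshold, 33 lost their call, 15 gained one and 30 uncalled ones changed sign; leaving out 1 animal, 952 of 1000 kept both, 35 lost their call, 1 gained one and 12 uncalled ones changed sign. CYP2C91 turned to -1.96 in animals numbered up to 100. No paired analysis was possible because the groups share no animal number. The setting for linear intensities did not apply. Dim enzymes near 2.79 have no measurable order.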

Other observations

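Glutathione genes, which supply the cofactor of the glutathione transferases, had no call in either direction. GCLC, the catalytic subunit of the first step of glutathione synthesis, read 9.88, 10.56 and 11.16 (lowest, median, highest) in ND kidneys and 9.29, 9.97 and 10.79 in control kidneys, a difference of 0.57 ± 0.18 (adjusted p = 0.0697 by limma). GSR, which regenerates glutathione, differed by 0.34 ± 0.15 (adjusted p = 0.148). GCLM (-0.15 ± 0.29, adjusted p = 0.729) and GSS (-0.11 ± 0.12, adjusted p = 0.541), also genes of glutathione synthesis, had negative differences. The peroxidases GPX1 (0.58 ± 0.26, adjusted p = 0.153) and GPX3 (-0.31 ± 0.14, adjusted p = 0.158) had differences of opposite sign. PAPSS1, which makes the sulfate donor of the sulfotransferases, read 8.01, 8.39 and 10.25 in ND kidneys and 7.63, 7.94 and 8.48 in control kidneys (0.66 ± 0.23, adjusted p = 0.0835).

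GNMT and MAOA lay just outside the threshold. GNMT, which consumes methyl groups on glycine, read 5.004, 6.05 and 6.91 (lowest, median, highest) in ND kidneys and 4.31, 7.62 and 8.31 in control kidneys, a difference of -1.31 ± 0.40 (adjusted p = 0.0537). MAOA, a monoamine oxidase, had 6 ND animals below every control and differed by -0.52 ± 0.16 (adjusted p = 0.0535). These genes were named after their values were seen.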
